A study of Homo sapiens with 8 samples.

Results

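Transcripts of ASNS (asparagine synthetase) and of 9 amino acid transporter genes of the plasma membrane were followed in BEAS-2b cells, an immortalised human airway epithelial cell line. The 10 genes, of 26485 in the tables, were taken by symbol: ASNS, SLC7A11, SLC3A2, SLC7A5, SLC7A1, SLC1A4, SLC1A5, SLC38A1, SLC38A2 and SLC6A9. They were chosen with earlier results of these data known, in which ASNS was among the genes higher with LY96 siRNA under house dust mite (HDM) extract. The members' values in that comparison are therefore given below as a description, with no test. LY96 encodes MD-2, a small secreted partner of the receptor TLR4 in the sensing of bacterial lipopolysaccharide. Cells carried siRNA against LY96 or a control siRNA, were moved to BEBM medium 24 h before stimulation, received HDM extract or PBS, and were harvested 24 h later. LY96 siRNA and HDM had 3 libraries, control siRNA and HDM another 3, and under PBS there was 1 library for LY96 siRNA and 1 for control siRNA. All are total RNA of 1 cell line, and no label tells whether libraries sharing a group are separate cultures, so the p-values rest on a spread that may be only technical.

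The values are fragments per kilobase of transcript and scaled by sequenced fragments (FPKM), a level per length that can be set side by side between genes. LY96 was listed at 0 in all 8 libraries, so the knockdown could not be checked and groups go by their labels. All 10 airway epithelial marker genes averaged at least 1 FPKM, with summed levels of 2412 to 2599 FPKM with LY96 siRNA and HDM, 2616 to 2735 with control siRNA and HDM, and under PBS 2740 with LY96 siRNA and 2663 with control siRNA. None of 6 leukocyte and none of 5 endothelial markers averaged 1 FPKM, and PTPRC, CD3E and PECAM1 were at 0. Of 6 fibroblast markers, PDGFRB, COL1A1 and THY1 reached 1 FPKM while DCN and LUM were at 0. Their summed level was 32.8 to 38.6 FPKM with LY96 siRNA and HDM, 28.3 to 30.3 with control siRNA and HDM, and under PBS 39.5 with LY96 siRNA and 34.6 with control siRNA. Ribosomal RNA genes held 1.03% to 1.31% of the FPKM total with LY96 siRNA and HDM, 0.475% to 0.824% with control siRNA and HDM, and under PBS 0.826% with LY96 siRNA and 0.770% with control siRNA. The part of the marker and ribosomal RNA values in the results below was not tested. These were bulk samples, in which more cells with a transcript and more transcript per cell cannot be told apart.

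ASNS makes asparagine from aspartate, with glutamine as the nitrogen donor. When a cell lacks amino acids, or its endoplasmic reticulum is stressed, phosphorylation of the initiation factor eIF2alpha favours translation of the transcription factor ATF4, which raises ASNS and a set of amino acid transporters through composite C/EBP-ATF response elements (CARE). SLC3A2 is the heavy chain (CD98) that pairs with a light chain to reach the surface: with SLC7A11 it forms the cystine and glutamate exchanger xCT, and with SLC7A5 the large neutral amino acid exchanger LAT1. SLC7A11 is also a known target of NRF2, the oxidative stress factor that binds antioxidant response elements (ARE).

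Promoter sequence is shown because the members are known for a shared element. RefSeq windows on GRCh38.p14 of 250 bases before to 50 bases after an annotated start were given for 9 of the 10 members (not SLC7A11), 16 windows in all. The CARE letters TGATGNAAN, on either strand, were found in 6 of the 16 windows (37.5%), 1 in each of 6 genes, and in 1264 of 34943 windows of all genes (3.62%). The ARE core TGACNNNGC was found in 4 of the 16 windows (25.0%), in SLC3A2, SLC7A5, SLC7A1 and SLC1A5, and in 13.34% of all windows. No ARE match in a member overlapped a CARE match. A match of letters is a description and not a site of binding. As the members are known for the CARE element, nothing is read from its share. Some matches lie at annotated starts inside the gene, as in SLC3A2, SLC1A4, SLC1A5 and SLC38A1. Which starts these cells use was not tested. The ASNS window is printed whole up to the base before the start, on the minus strand (chr7:97872409-97872658), with the CARE match in capitals. The match TGATGAAAC lies 68 bases before the start, where the nutrient-sensing element of human ASNS is known. The other lines show each match in capitals with its flanks, read in the direction of the gene: SLC7A1 at chr13:29595662-29595691 (minus), SLC1A4 at chr2:64989381-64989410 (plus), SLC1A5 at chr19:46784892-46784921 (minus), SLC38A1 at chr12:46266501-46266530 (minus) and SLC3A2 at chr11:62881725-62881748 (plus). In SLC1A4 and SLC3A2 the letters lie on the opposite strand.
ASNS: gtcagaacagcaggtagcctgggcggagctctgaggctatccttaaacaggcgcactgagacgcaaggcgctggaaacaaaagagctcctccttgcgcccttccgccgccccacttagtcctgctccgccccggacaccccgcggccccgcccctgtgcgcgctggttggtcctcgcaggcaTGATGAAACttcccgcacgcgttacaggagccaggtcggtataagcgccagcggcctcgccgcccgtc
SLC7A1: ggcgcactgcTGATGAAACctggcgccgga
SLC1A4: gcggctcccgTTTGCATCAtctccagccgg
SLC1A5: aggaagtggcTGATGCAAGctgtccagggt
SLC38A1: cagacccgaaTGATGAAAAgggatcagcta
SLC3A2: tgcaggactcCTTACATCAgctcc
ASNS and SLC7A1 held the same 9 letters. Members with a match include ASNS, which rose on HDM with LY96 siRNA, and SLC38A1, which kept a level of about the same size in every group (below).

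The tests were contrasts of 1 limma model of the 4 group means on log2(FPKM + 1), with Benjamini-Hochberg adjusted p-values over all 12604 genes that averaged at least 1 FPKM, and a threshold of 0.05. All 10 members passed that filter. A log2 difference on this scale understates the change of a low gene. A PBS library is alone in its group and is assumed to vary like the HDM libraries. Comparisons share libraries: the LY96 siRNA libraries under HDM enter both the difference that the members were chosen on and the HDM response with LY96 siRNA, so a p of that response is not independent of the choice. The control siRNA response shares its HDM libraries with that difference, and the siRNA comparison under PBS shares none.

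ASNS (chr7:97852118-97872542, minus strand, coordinates from GENCODE v29 on GRCh38 here and below) was several times higher under HDM with LY96 siRNA than in any other group. It had 39.7, 52.6 and 36.5 FPKM with LY96 siRNA and HDM, 10.2, 10.7 and 10.4 FPKM with control siRNA and HDM, 8.39 FPKM with LY96 siRNA and PBS and 7.96 FPKM with control siRNA and PBS. The LY96 siRNA libraries under HDM did not overlap the others, and the remaining 5 libraries lay between 7.96 and 10.7 FPKM. With LY96 siRNA, HDM raised ASNS 5.12-fold over PBS in FPKM, a log2 difference of 2.21 ± 0.18 (SE; 95% interval 1.76 to 2.66; limma adjusted p = 0.00181). With control siRNA the ratio of HDM to PBS was 1.31, a log2 difference of 0.35 ± 0.18 (SE) whose interval reached -0.10 to 0.80 (limma adjusted p = 0.429). Without replicate 2 of LY96 siRNA and HDM, the highest of its group, the control siRNA response passed the threshold (limma adjusted p = 0.0375). Between the siRNAs under HDM, the means were 42.9 ± 8.54 FPKM with LY96 siRNA and 10.4 ± 0.255 with control siRNA (SD, n = 3 each), a ratio of 4.11.

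**Figure D1:**
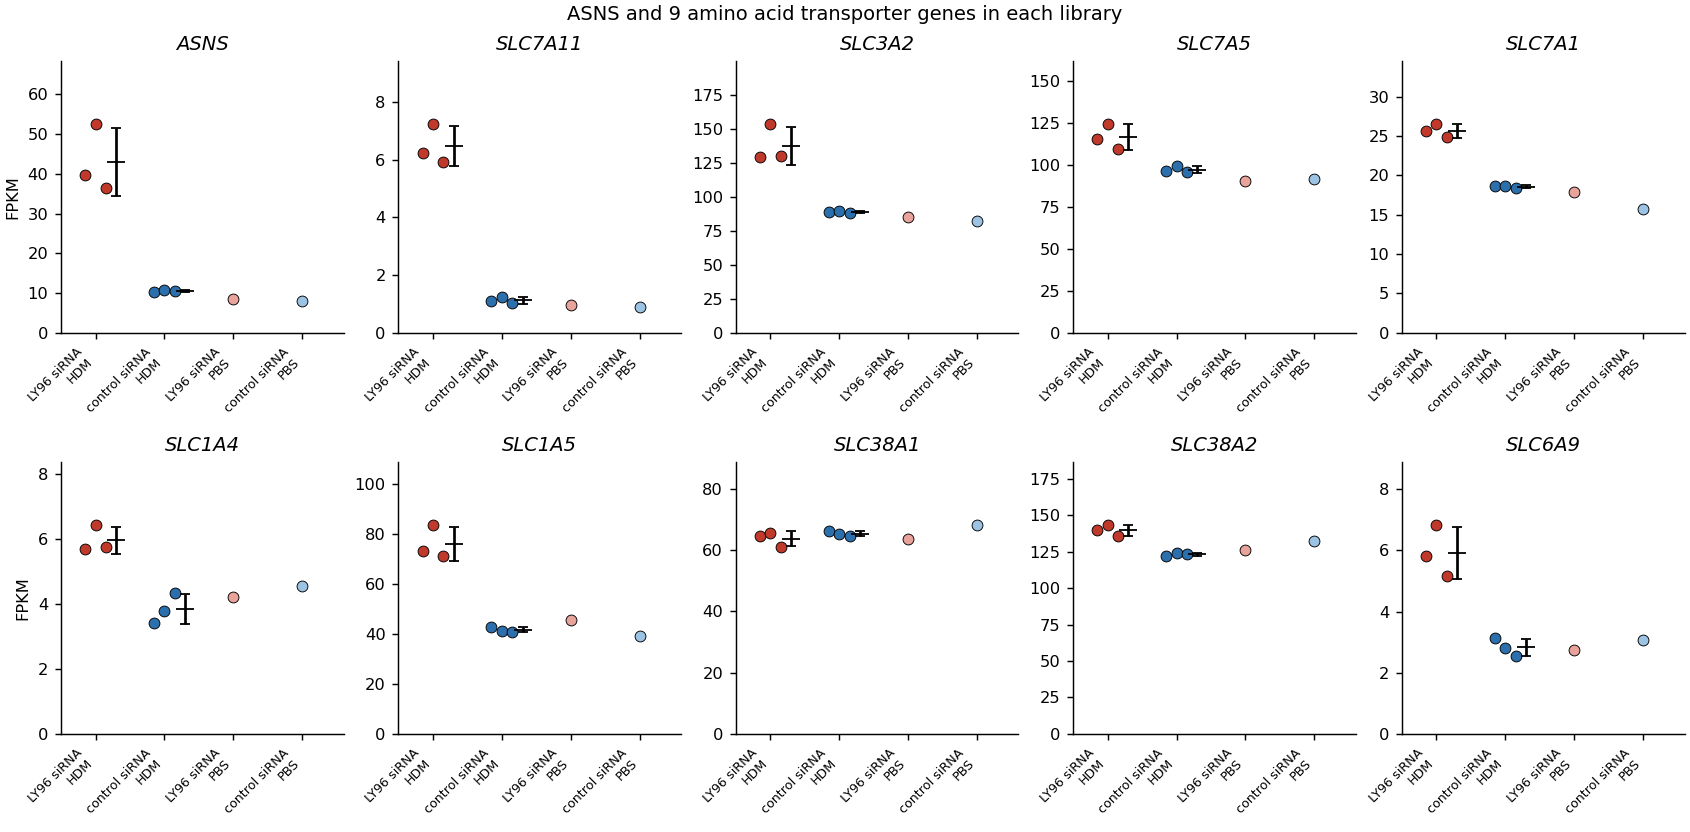
FPKM of each of the 10 genes in each of the 8 libraries (1 panel per gene, linear axis from 0), with LY96 siRNA left of control siRNA and HDM left of PBS; points are libraries and the bar is the mean ± SD of the 3 HDM libraries. ASNS and SLC7A11 stand apart with LY96 siRNA and HDM (36.5 to 52.6 FPKM and 5.93 to 7.24 FPKM), while SLC38A1 lies between 61.0 and 68.2 FPKM in every library.

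The cystine light chain gene SLC7A11 (chr4:138164097-138242349, minus strand) was a low transcript that rose with HDM when LY96 siRNA was present. It had 6.21, 7.24 and 5.93 FPKM with LY96 siRNA and HDM, 1.09, 1.25 and 1.03 FPKM with control siRNA and HDM, 0.949 FPKM with LY96 siRNA and PBS and 0.883 FPKM with control siRNA and PBS. Again the LY96 siRNA libraries under HDM lay above all others. HDM with LY96 siRNA gave a 6.81-fold ratio over PBS and a log2 difference of 1.93 ± 0.12 (SE; 95% interval 1.66 to 2.21; limma adjusted p = 3.17e-05). HDM with control siRNA gave a ratio of 1.27 and a log2 difference of 0.17 ± 0.12 (SE; interval -0.10 to 0.45; limma adjusted p = 0.548). Its antisense gene SLC7A11-AS1 was at 0.015 to 0.220 FPKM in all libraries, and whether the counting used strand is not given in the sources used here.

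Of the CD98 partners, the heavy chain and the LAT1 light chain were abundant and moved by less. SLC3A2 (chr11:62856102-62888875, plus strand) had 129.2, 153.7 and 129.7 FPKM with LY96 siRNA and HDM, 89.1, 89.5 and 88.1 FPKM with control siRNA and HDM, 85.5 FPKM with LY96 siRNA and PBS and 82.2 FPKM with control siRNA and PBS. SLC7A5 (chr16:87830023-87869488, minus strand) had 115.5, 124.3 and 109.1 FPKM with LY96 siRNA and HDM, 96.1, 99.2 and 95.8 FPKM with control siRNA and HDM, 90.3 FPKM with LY96 siRNA and PBS and 91.7 FPKM with control siRNA and PBS. In both genes the 3 libraries with LY96 siRNA and HDM lay above the other 5. With LY96 siRNA, HDM raised SLC3A2 by 0.68 ± 0.09 on the log2 scale (limma adjusted p = 0.00425) and SLC7A5 by 0.36 ± 0.06 (SE; limma adjusted p = 0.0130). The SLC7A5 call was lost without the filter on low values (adjusted p = 0.0657) and with limma without trend and robust moderation (0.0611). With control siRNA the log2 differences were 0.11 for SLC3A2 (interval -0.09 to 0.32) and 0.08 for SLC7A5 (interval -0.07 to 0.23), and neither passed the test (limma adjusted p = 0.603 and 0.601). SLC7A5 has near-identical copies, of which SLC7A5P1 was at 1.14 to 2.15 FPKM and SLC7A5P2 at 2.06 to 2.84 FPKM, so its level depends to that extent on how reads were divided.

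The makeup of the light chains changed in the transcripts, as a ratio of levels within a library. SLC7A11 amounted to 5.55 ± 0.245% of SLC7A5 with LY96 siRNA and HDM, 1.16 ± 0.0928% with control siRNA and HDM (SD, n = 3 each), and under PBS 1.05% with LY96 siRNA and 0.963% with control siRNA. LAT1 light chain transcript was thus the larger by far in every library. SLC3A2 stood at 1.18 ± 0.0596 times SLC7A5 with LY96 siRNA and HDM, 0.916 ± 0.0127 times with control siRNA and HDM, and under PBS 0.947 with LY96 siRNA and 0.896 with control siRNA. The heavy chain transcript exceeded that of SLC7A5 in the 3 libraries with LY96 siRNA and HDM (1.12 to 1.24 times), and lay below it in the other 5.

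SLC7A1, the cationic amino acid transporter CAT-1 that brings arginine and lysine into cells (chr13:29509410-29595688, minus strand), varied little within each HDM group. It had 25.6, 26.5 and 24.8 FPKM with LY96 siRNA and HDM, 18.6, 18.7 and 18.4 FPKM with control siRNA and HDM, 17.9 FPKM with LY96 siRNA and PBS and 15.7 FPKM with control siRNA and PBS. HDM libraries lay above the PBS library with either siRNA. The log2 difference was 0.49 ± 0.05 with LY96 siRNA (SE; limma adjusted p = 0.000931). With control siRNA it was 0.23 (interval 0.11 to 0.35), which had an unadjusted p below 0.05 and missed the threshold after adjustment (limma adjusted p = 0.0667).

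SLC1A5 (ASCT2, a glutamine and neutral amino acid exchanger) and SLC1A4 (ASCT1, an exchanger of alanine, serine, cysteine and threonine) are of 1 family. SLC1A5 (chr19:46774883-46788594, minus strand) had 73.3, 83.8 and 71.3 FPKM with LY96 siRNA and HDM, 42.8, 41.3 and 41.0 FPKM with control siRNA and HDM, 45.6 FPKM with LY96 siRNA and PBS and 39.2 FPKM with control siRNA and PBS. SLC1A4 (chr2:64988477-65023865, plus strand) had 5.69, 6.44 and 5.76 FPKM with LY96 siRNA and HDM, 3.41, 3.77 and 4.34 FPKM with control siRNA and HDM, 4.21 FPKM with LY96 siRNA and PBS and 4.55 FPKM with control siRNA and PBS. Both were highest with LY96 siRNA and HDM. For SLC1A4 the control siRNA libraries under HDM all lay below their PBS library, while those of SLC1A5 lay above it. With LY96 siRNA, HDM raised SLC1A5 by 0.72 ± 0.08 on the log2 scale (limma adjusted p = 0.00135), and SLC1A4 differed by 0.42 ± 0.11 (SE; interval 0.16 to 0.67), which did not pass after adjustment (limma adjusted p = 0.0811). With control siRNA the log2 differences were 0.09 for SLC1A5 (interval -0.10 to 0.27; limma adjusted p = 0.662) and -0.20 for SLC1A4 (interval -0.46 to 0.05; adjusted p = 0.434). SLC1A5 was at 12.8 ± 0.330 times SLC1A4 with LY96 siRNA and HDM, 10.98 ± 1.56 times with control siRNA and HDM, and under PBS 10.8 with LY96 siRNA and 8.61 with control siRNA.

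SLC38A1 (SNAT1) and SLC38A2 (SNAT2), sodium-coupled importers of glutamine and other small neutral amino acids whose genes lie close together on chromosome 12, showed the smallest differences among the members on HDM with LY96 siRNA. SLC38A2 (chr12:46358189-46372867, minus strand), known for its induction in amino acid lack, had 140.0, 143.4 and 135.6 FPKM with LY96 siRNA and HDM, 121.9, 124.2 and 123.4 FPKM with control siRNA and HDM, 126.1 FPKM with LY96 siRNA and PBS and 132.3 FPKM with control siRNA and PBS. The HDM libraries lay above PBS with LY96 siRNA and below PBS with control siRNA. The log2 differences were 0.15 (interval 0.05 to 0.24; limma adjusted p = 0.0990) with LY96 siRNA and -0.10 (interval -0.20 to -0.0075; limma adjusted p = 0.268) with control siRNA. SLC38A1 (chr12:46183063-46270017, minus strand) had 64.4, 65.6 and 61.0 FPKM with LY96 siRNA and HDM, 66.1, 65.2 and 64.7 FPKM with control siRNA and HDM, 63.5 FPKM with LY96 siRNA and PBS and 68.2 FPKM with control siRNA and PBS. Its groups under HDM overlapped. The log2 difference on HDM was 0.0043 with LY96 siRNA (interval -0.11 to 0.11) and -0.06 with control siRNA (interval -0.17 to 0.05), and the sign of the first turned under other scalings.

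SLC6A9, the glycine transporter GLYT1 (chr1:43991500-44031467, minus strand), was low and rose with HDM under LY96 siRNA. It had 5.80, 6.84 and 5.15 FPKM with LY96 siRNA and HDM, 3.12, 2.80 and 2.56 FPKM with control siRNA and HDM, 2.74 FPKM with LY96 siRNA and PBS and 3.07 FPKM with control siRNA and PBS. All 3 libraries with LY96 siRNA and HDM lay above the rest, and the control siRNA libraries under HDM lay on both sides of their PBS library. The log2 difference on HDM was 0.88 ± 0.14 with LY96 siRNA (SE; limma adjusted p = 0.00601) and -0.09 with control siRNA (interval -0.40 to 0.22; limma adjusted p = 0.796). CCDC24, which overlaps it on the opposite strand, was at 5.59 ± 0.376 FPKM with LY96 siRNA and HDM, 5.02 ± 0.277 with control siRNA and HDM (SD, n = 3 each), and under PBS 4.08 with LY96 siRNA and 3.22 with control siRNA.

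Counted over the members, HDM with LY96 siRNA raised 7 of 10 and lowered 0 (limma, adjusted p below 0.05), where 4.9% of all genes tested were called, 2.91% higher and 1.98% lower. The 7 were ASNS, SLC7A11, SLC3A2, SLC7A5, SLC7A1, SLC1A5 and SLC6A9, and with unadjusted p below 0.05 there were 9, all higher. The median log2 difference of the members was 0.58, against 0.01 over all genes. The 3 HDM libraries all lay above the PBS library for 9 of 10 members and for 33.4% of all genes. These counts and the median use the LY96 siRNA libraries under HDM that also entered the difference the members were chosen on. They are a description, and nothing is read from setting them beside the shares of all genes. With control siRNA, limma called 0 of 10 members at an adjusted p below 0.05, where 2.28% of genes were called, 1.55% higher and 0.738% lower. At unadjusted p below 0.05 there were 2, SLC7A1 higher and SLC38A2 lower, and limma without trend and robust moderation also called 0. The model has 1 spread per gene for all groups, so the spread of the LY96 siRNA libraries under HDM enters this test too. Without replicate 2 of LY96 siRNA and HDM, ASNS was called, as given above. The member median was 0.08, against 0.01 over all genes, and 6 of 10 members had all 3 HDM libraries above PBS, against 33.8% of genes. For 3 members (SLC1A4, SLC38A1 and SLC38A2) all 3 HDM libraries lay below PBS, an order not counted over all genes. Summed over the 9 transporters, the level was 577 ± 36.1 FPKM with LY96 siRNA and HDM, 442 ± 3.24 with control siRNA and HDM (SD, n = 3 each), and under PBS 436.8 with LY96 siRNA and 437.8 with control siRNA.

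**Figure D2:**
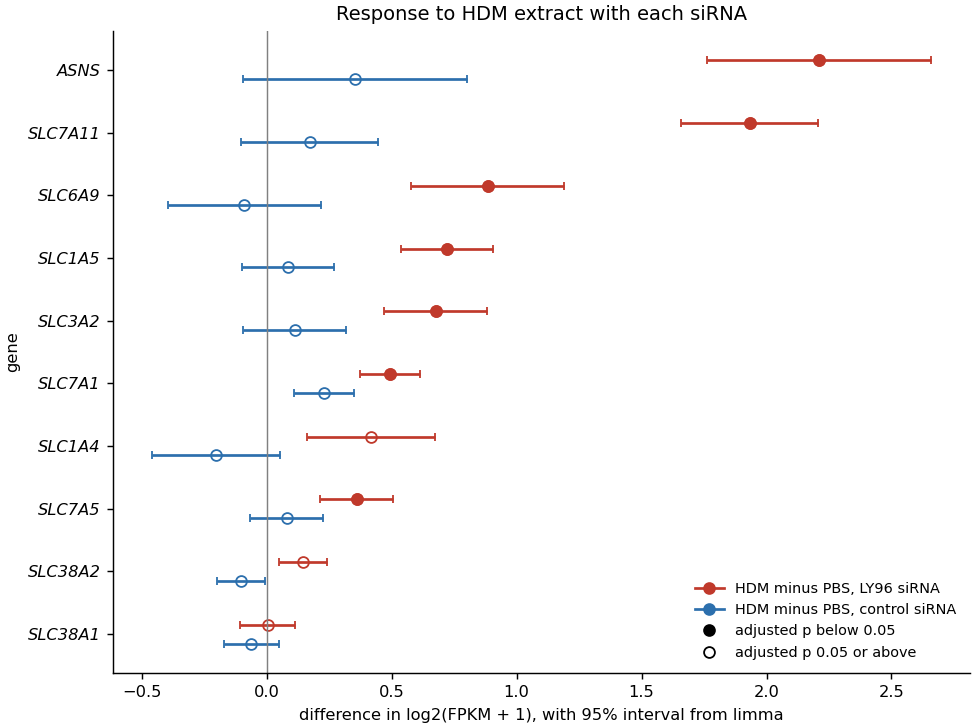
Difference of HDM minus PBS in log2(FPKM + 1) for each of the 10 genes, with its 95% limma interval; LY96 siRNA is drawn above control siRNA and filled points had an adjusted p below 0.05. With LY96 siRNA 7 genes are filled, from 0.36 (SLC7A5) to 2.21 (ASNS), and with control siRNA none is.

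Under PBS the 2 siRNAs differed little in these genes. LY96 siRNA minus control siRNA ran from -0.12 (SLC6A9) to 0.21 (SLC1A5) on the log2 scale, 5 members positive and 5 negative, with a median of 0.01 against -0.02 over all genes. None passed the test (limma adjusted p 0.228 to 0.924), where 0.468% of all genes did, and 1 member, SLC7A1, had an unadjusted p below 0.05. limma without trend and robust moderation also called 0. For ASNS the log2 difference was 0.07 with an interval of -0.48 to 0.62, and for SLC7A11 it was 0.05 with an interval of -0.29 to 0.39. With 1 library a side, any difference inside those intervals remains possible.

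The difference between the HDM response with LY96 siRNA and that with control siRNA was fitted as the interaction. It equals the siRNA difference under HDM, which the members were chosen on, minus the siRNA difference under PBS, so the members' values are given as a description with no p. The log2 difference of responses was 1.86 ± 0.26 for ASNS (SE; interval 1.22 to 2.49) and 1.76 ± 0.17 for SLC7A11 (SE; interval 1.37 to 2.15). The other members ran from 0.07 (SLC38A1; interval -0.09 to 0.22) to 0.97 (SLC6A9), each with the larger response under LY96 siRNA. limma called 0.0555% of all genes, 1 of the 10 members among them (SLC7A11), from which nothing is read. SLC7A11 was not called without replicate 1 of LY96 siRNA and HDM, without replicate 1 of control siRNA and HDM, or with limma without trend and robust moderation. Without replicate 2 of LY96 siRNA and HDM, ASNS, SLC3A2 and SLC1A5 were called too, and nothing is read from these calls either.

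Between the siRNAs under HDM, the comparison that the members were chosen on, the ratios of mean FPKM were 5.76 for SLC7A11, 4.11 for ASNS, 2.10 for SLC6A9, 1.83 for SLC1A5, 1.55 for SLC3A2, 1.55 for SLC1A4, 1.38 for SLC7A1, 1.20 for SLC7A5, 1.13 for SLC38A2 and 0.975 for SLC38A1. All 3 LY96 siRNA libraries lay above all 3 control siRNA libraries for 9 of 10 members, against 15.2% of genes, and nothing is read from that count. Over all 12598 genes of these 6 libraries, 15.6% were called, 6.68% higher and 8.92% lower with LY96 siRNA (limma, adjusted p below 0.05). The split was 842 higher and 1124 lower, and it became 1071 and 878 with median-ratio scaling and 991 and 958 with quantile normalization.

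In order of level under HDM with LY96 siRNA, SLC38A2, SLC3A2, SLC7A5, SLC1A5, SLC38A1, ASNS, SLC7A1, SLC7A11, SLC1A4 and SLC6A9 followed one another. SLC38A2 and SLC3A2 overlapped there, as did the last 3 genes. With control siRNA and HDM, and in both PBS libraries, the order was SLC38A2, SLC7A5, SLC3A2, SLC38A1, SLC1A5, SLC7A1, ASNS, SLC1A4, SLC6A9 and SLC7A11, and under HDM no neighbours in it overlapped. ASNS thus stood above SLC7A1 and SLC1A5 above SLC38A1 with LY96 siRNA and HDM alone among the 4 groups, and SLC7A11 left the lowest place. The members also differed in their spread among libraries. The coefficient of variation with LY96 siRNA and HDM was 19.9% for ASNS, 14.4% for SLC6A9 and 10.7% for SLC7A11, and 2.79% for SLC38A2, against a median of 4.74% over all genes. With control siRNA and HDM it was 2.44% for ASNS and 12.2% for SLC1A4, against a median of 4.56%. Replicate 2 of LY96 siRNA and HDM was the highest of its group for 10 of 10 members, and for 39.98% of all genes.

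The genes whose pattern over the 8 libraries was most like that of ASNS were found by the root mean square (RMS) difference of centred log2(FPKM + 1), over 12603 genes. The points share their libraries, and no test was made. PSAT1, an enzyme of serine synthesis, was closest with a difference of 0.0759, where ASNS itself had an RMS of 1.01 around its mean. SLC7A11 followed with 0.133, then STC2 (stanniocalcin 2, a secreted glycoprotein) with 0.203, DDIT4 (an inhibitor of mTORC1 signalling) with 0.276 and PTX3 (a soluble pattern-recognition molecule) with 0.276. PSAT1 had 53.6, 66.0 and 49.8 FPKM with LY96 siRNA and HDM, 14.8, 13.3 and 13.2 FPKM with control siRNA and HDM, 11.3 FPKM with LY96 siRNA and PBS and 9.74 FPKM with control siRNA and PBS. It shared with ASNS the high second library. The genes closest to SLC7A11 were ASNS (0.133), STC2 (0.154), PSAT1 (0.160), DDIT4 (0.190) and ADM2 (0.217). Of the other members, SLC1A5 came 31st and SLC6A9 33rd in likeness to ASNS, while SLC38A2 came 1173rd and SLC38A1 7379th.

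**Figure D3:**
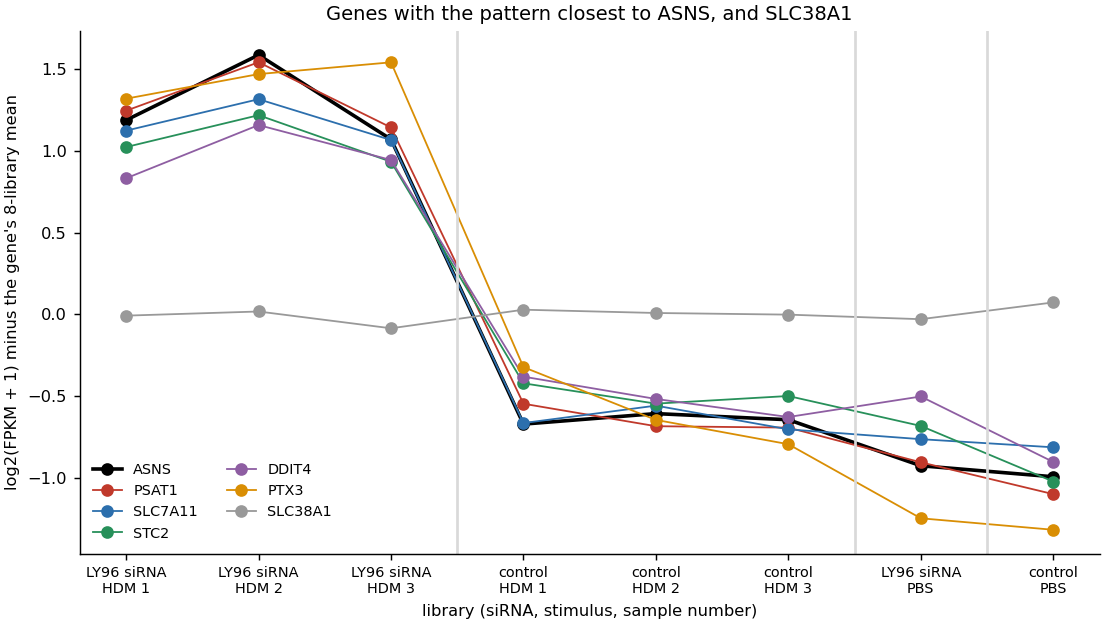
Centred log2(FPKM + 1) over the 8 libraries for ASNS, its 5 closest genes and SLC38A1; lines only join the points of 1 gene. PSAT1 runs closest to ASNS (RMS difference 0.0759) and SLC38A1 stays near 0 throughout (RMS of 0.0429 around its mean).

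Other genes of amino acid handling were read from 7 lists, chosen with earlier results of these data known. Their HDM responses share libraries with those results. The list counts and p-values below, above all those with LY96 siRNA, are thus not independent of the choice. Nothing is read from setting the counts beside the shares of all genes. Of 16 genes of ATF4 and the amino acid response, 13 rose with HDM under LY96 siRNA and 0 fell, where 2.91% of all genes were called higher and 1.98% lower (median log2 difference 0.78, against 0.01 over all genes). CHAC1, an enzyme that degrades glutathione, rose by 3.00 ± 0.20 (limma adjusted p = 0.000236) and had 19.3 ± 2.65 FPKM with LY96 siRNA and HDM, 2.26 ± 0.606 with control siRNA and HDM (SD, n = 3 each), and under PBS 1.52 with LY96 siRNA and 0.431 with control siRNA. STC2 rose by 1.74 ± 0.10 (adjusted p = 2.53e-05), the transcription factor gene DDIT3 (CHOP) by 1.51 ± 0.11 (adjusted p = 8.74e-05) and DDIT4 by 1.48 ± 0.13 (SE; limma adjusted p = 0.00163). With control siRNA 2 of the 16 rose and 0 fell (median 0.16), where 1.55% of all genes were called higher and 0.738% lower. The 2 were CHAC1, by 1.17 ± 0.20, and STC2, by 0.53 ± 0.10 (SE; limma adjusted p = 0.0321 for both). Both of these calls were lost under some alternatives, with adjusted p up to 0.102 for CHAC1 and 0.113 for STC2.

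Of 8 enzymes of serine, glycine and folate metabolism, 6 rose with HDM under LY96 siRNA and 0 fell, against the same 2.91% and 1.98% of all genes. The median was 0.69, against 0.01. PSAT1 rose by 2.22 ± 0.14 (limma adjusted p = 0.000266), the mitochondrial folate enzyme gene MTHFD2 by 1.19 ± 0.08 (adjusted p = 7.23e-05), PSPH by 0.75 ± 0.14 (adjusted p = 0.0162) and the serine hydroxymethyltransferase gene SHMT2 by 0.70 ± 0.09 (SE; adjusted p = 0.00335). With control siRNA 1 of 8 rose (median 0.10), where 1.55% of all genes were called higher. This was MTHFD1L, by 0.32 ± 0.06 (SE; limma adjusted p = 0.0321), a call lost without 1 of several libraries (adjusted p up to 0.0778). PSPH lost its call without the filter on low values (adjusted p = 0.0779).

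Of 16 enzymes of asparagine, aspartate, glutamine, glutamate and proline, 15 were tested, 3 rose with HDM under LY96 siRNA and 1 fell, where 4.9% of all genes were called, and the median was 0.0043, against 0.01 over all genes. GPT2, which makes alanine and 2-oxoglutarate, rose by 0.81 ± 0.10 (limma adjusted p = 0.00278), PYCR1, of proline synthesis, by 0.67 ± 0.07 (adjusted p = 0.000631) and ASS1, argininosuccinate synthase, by 0.64 ± 0.10 (SE; adjusted p = 0.00678). GLUL, glutamine synthetase, fell by 0.36 on the log2 scale (SE 0.06; limma adjusted p = 0.00931). With control siRNA ASS1 alone of the 15 rose, by 0.63 ± 0.10 (SE; limma adjusted p = 0.0145), where 1.55% of all genes were called higher. The list's median was -0.01. That ASS1 call was lost without the filter on low values (adjusted p = 0.0658) and with limma without trend and robust moderation (0.0538).

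Of 24 other genes from families that hold amino acid transporters, 14 averaged at least 1 FPKM. What each of them carries, and in which membrane, was not tested. With LY96 siRNA 1 of the 14 rose on HDM and 0 fell, where 2.91% of all genes were called higher and 1.98% lower. The 1 was SLC43A3, by 0.33 ± 0.07 (SE; limma adjusted p = 0.0307), a call that several alternatives removed (adjusted p up to 0.104). The median of the list was -0.05. With control siRNA 0 of 14 passed in limma, where 1.55% of all genes were called higher and 0.738% lower. At unadjusted p below 0.05 there were 4, all higher, and the median was 0.02.

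The partner pathways of cystine uptake were mixed. Of 8 genes of glutathione synthesis and transsulfuration, 7 were tested. On HDM under LY96 siRNA 1 was called higher and 1 lower, where 2.91% of all genes were called higher and 1.98% lower. CBS, which makes cystathionine, rose by 0.53 ± 0.06 (SE; limma adjusted p = 0.00181). GCLC, the catalytic subunit of glutamate-cysteine ligase, fell by 0.30 (SE 0.07; adjusted p = 0.0482), a call lost under 7 of 11 alternatives (adjusted p up to 0.108). Of 9 other NRF2 targets, 8 were tested, with 1 called higher and 1 lower with each siRNA. Over all genes the shares were 2.91% higher and 1.98% lower with LY96 siRNA, and 1.55% higher and 0.738% lower with control siRNA. FTH1 (ferritin heavy chain) rose by 0.49 ± 0.04 with LY96 siRNA (limma adjusted p = 0.000282) and by 0.28 ± 0.04 with control siRNA (adjusted p = 0.0135), the second call lost under 3 of 11 alternatives (adjusted p up to 0.0932). TXNRD1 (thioredoxin reductase) fell by 0.25 with LY96 siRNA (adjusted p = 0.0138) and by 0.29 with control siRNA (adjusted p = 0.0134). Both HDM calls of TXNRD1 were lost with limma without trend and robust moderation (adjusted p = 0.0537 with LY96 siRNA and 0.0548 with control siRNA). Of 17 genes of mTORC1 amino acid sensing, limma called 0 with LY96 siRNA, where 2 had an unadjusted p below 0.05, and 0 with control siRNA, where 1 had. Over all genes limma called 4.9% with LY96 siRNA and 2.28% with control siRNA. The list medians were -0.0092 and -0.08.

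**Figure D4:**
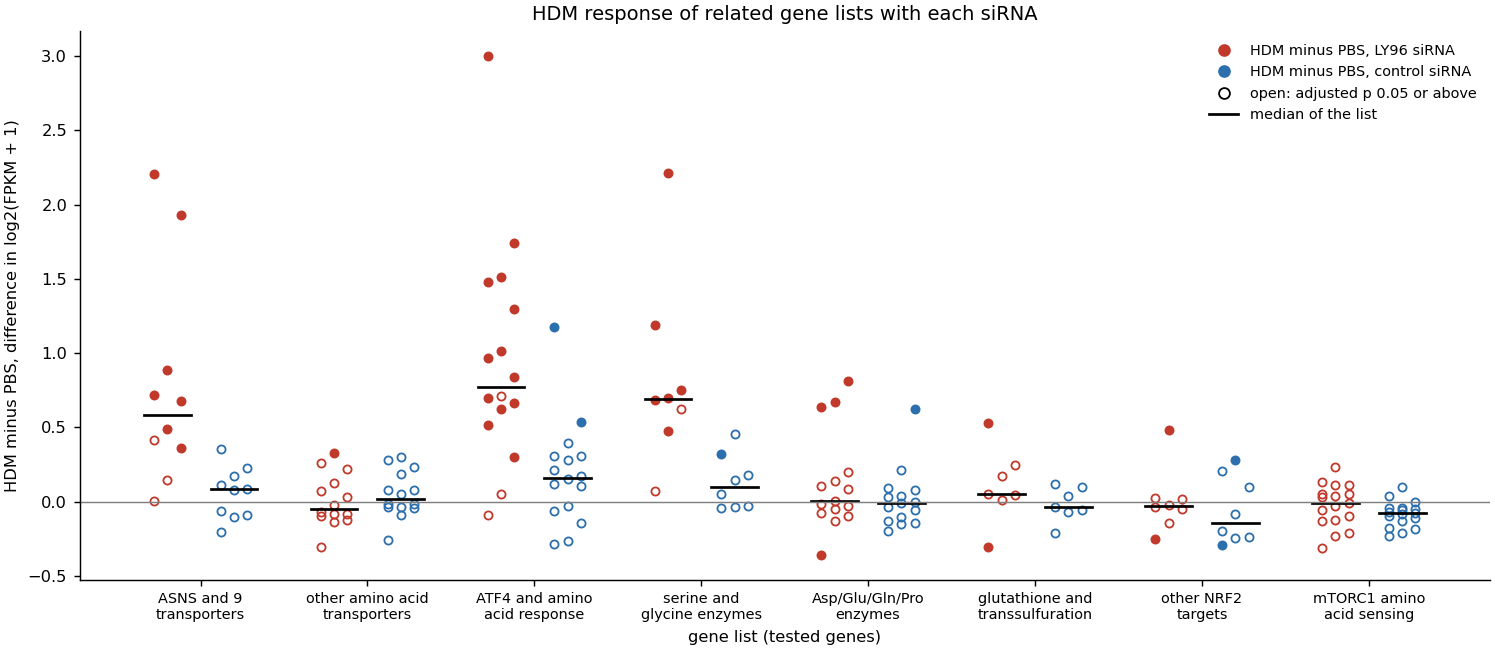
Difference of HDM minus PBS in log2(FPKM + 1) for each tested gene of the 10 members and the 7 lists, with LY96 siRNA left and control siRNA right; black lines are list medians and filled points had an adjusted p below 0.05. With LY96 siRNA the medians of the members (0.58), the ATF4 list (0.78) and the serine and glycine enzymes (0.69) lie above 0, and the median of the other transporters is -0.05.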

How the data were processed

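RNA of 8 libraries was deposited as 1 table each, and the deposited values were read as FPKM made by the authors: neither labels nor headers name the unit, but values are not whole, show no whole-read steps, and sum to 329777 to 340328 per library. Depth is therefore unknown and no counting interval is given. Alignment used HISAT2 2.2.0 and the hg38 genome (from the submitters' processing notes, per the labels); which program made the values, with what annotation and strand setting, is not given in the sources used here. A value of exactly 0, seen throughout for 6408 genes but for 0 of 12 RNA polymerase II subunit genes, may come from a failed estimate. No library was a copy of another (r of log2 values 0.992 to 0.997).

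Groups follow the titles in the labels. limma 3.58.1 in R 4.3.3, with trend and robust moderation, was fitted to log2(FPKM + 1) of genes averaging at least 1 FPKM (two-sided, Benjamini-Hochberg over all genes tested, threshold 0.05). The siRNAs under HDM were compared in 6 libraries (12598 genes), the rest in 1 model of 8 (12604 genes, 4 residual degrees of freedom). Members, lists and settings were chosen with earlier results of these data known. All members are described, and from each list up to 4 called genes with the largest difference with LY96 siRNA and up to 2 with control siRNA, beside the 5 genes most like ASNS or SLC7A11. In the mTORC1 list 3 genes were found under older symbols. Alternatives were a pseudocount of 0.25, no filter, median-ratio scaling, quantile normalization, limma without trend and robust moderation, leaving out each HDM library and, for the siRNAs under HDM alone, a replicate block and the model of 8 libraries.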

Additional observations from a re-analysis of the deposited data

Results flagged for a closer look

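In the interaction of limma over 12604 genes, the difference of the 2 HDM responses (LY96 siRNA minus control siRNA) passed the threshold for 5 of the genes described (7 genes in all, each with the larger response under LY96 siRNA; 956 had an unadjusted p below 0.05). Each difference holds the siRNA difference under HDM, which was known when members and lists were chosen, so these p-values are not independent evidence of a difference. The difference of the log2 responses was 1.76 for SLC7A11, a member, for which no p is given. It was 0.80 for ATF4, 1.39 for DDIT3, 1.21 for STC2 and 1.01 for MTHFD2 (adjusted p = 0.0430 for each). HDM with LY96 siRNA raised ATF4 by 0.97 ± 0.07 (SE; limma adjusted p = 7.23e-05), and with control siRNA its difference was 0.17 (adjusted p = 0.249). Of 11 alternatives, the call was lost under 3 for SLC7A11, 7 for ATF4, and 6 each for DDIT3, STC2 and MTHFD2. For the list genes among them the limma adjusted p lay between 0.00501 and 0.288. In each of the 11, all 5 differences stayed positive.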

How the results depend on the processing

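Of 570 member values under the alternatives, 555 kept their direction and side of the threshold, 5 lost a call, 4 gained one and 6 turned sign. These include the comparison the members were chosen on and comparisons in which no member was called. Leaving out a library of 1 siRNA also cannot change the size of the HDM response with the other. The count is thus no measure of how firm the HDM response is. Of 297 values of the named list genes, 236 kept both and 61 lost a call. SLC38A1 on HDM with LY96 siRNA (0.0043) became -0.0102 with median-ratio scaling, -0.0277 with quantile normalization, and between -0.0171 and 0.0344 without 1 of the libraries with LY96 siRNA and HDM (-0.0044 without replicate 1, -0.0171 without replicate 2). SLC7A5 between the siRNAs under PBS (-0.02) became 0.0040 and 0.0345 with the 2 scalings; the cause was not tested. limma without trend and robust moderation called 2 genes between the siRNAs under PBS (59 otherwise), 180 for HDM with control siRNA (288) and 0 for the interaction (7), members included. The interaction called 20 genes without the low-value filter and 14 with quantile normalization. Leaving out 1 HDM library at a time gave 1119 to 1369 calls between the siRNAs under HDM (1966; 1119 without replicate 2 and 1243 without replicate 3 of control siRNA). Under PBS it gave 26 to 55 (59; 26, 38 and 31 without control siRNA replicates 1, 2 and 3). HDM with control siRNA gave 187 to 329 (288; 187 without control siRNA replicate 2) and 0 to 1 members. HDM with LY96 siRNA kept 7 members in each such fit. The interaction gave 0 to 33 (7) and 0 to 4 members: 2, 33 and 4 genes without LY96 siRNA replicates 1, 2 and 3, and 0 and 3 without control siRNA replicates 1 and 3. Each such fit has fewer samples. Without the PBS libraries no comparison with PBS exists, so they were never left out.

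Libraries under HDM with the same number showed no shared deviation (r of 0.048, -0.016 and -0.016). A weak pairing by number could not be seen this way. A fit of the siRNAs under HDM with the replicate block called 1635 genes (1966 without it). With 1 PBS library a group and unknown depth, any difference inside the intervals given remains possible, and a gene that was not called may still differ.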
